A study of Mus musculus with 20 samples.

Results

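The collagen genes were taken as every entry of the deposited gene table whose symbol is Col, a number, the letter a and a number. The rule gave 44 of the 24411 genes in the table. They are 11 fibrillar chains, 6 basement membrane chains and 27 others, namely 9 FACIT chains (fibril-associated collagens with interrupted helices), 6 beaded filament chains, 4 transmembrane collagens, 3 short chain collagens, 2 multiplexins and 3 further genes. Of the 44 genes, 43 passed the filter on low counts. Col10a1, a short chain collagen of growth plate cartilage, did not pass and lay between 0 and 0.495 CPM (counts in 1000000 of a library whose total is scaled by TMM factors) over the 20 libraries.

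Collagen chains wind around each other into long helical proteins that are hydroxylated and folded in the endoplasmic reticulum, secreted and assembled outside the cell. Fibrillar collagens form the tensile fibrils of connective tissue, type IV chains form the sheet-like network of basement membranes, and FACIT, beaded filament, transmembrane and multiplexin collagens coat fibrils or link matrix to cells. In the brain, fibroblasts of the meninges and of the vessel wall are known as a main source of fibrillar collagens, and vascular and meningeal cells of type IV collagen.

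The libraries came from mouse cerebellar granule neuron cultures, in 4 groups of 5 libraries. Cells were infected on day 1 in vitro, received AraC on day 2 and were taken for RNA on day 7. The groups were control, shKDM6B (an shRNA against mouse Kdm6b, which encodes a demethylase of histone H3 lysine 27), shKDM6B Cat Rescue (the shRNA with the enzymatic domain of human KDM6B, read here as the active form) and shKDM6B dCat Rescue (the shRNA with the dead domain). AraC, which stops dividing cells from replicating DNA, was thus shared by every group, controls included. The virus of the control cultures and the strain, age and sex of the mice are unknown from the labels. The study asked of synaptic genes whether the enzymatic activity restores their expression once the endogenous gene is knocked down.

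Each library held 14200745 to 21179300 estimated counts, and the 44 collagen genes took 0.633 to 3.10% of them. Control libraries averaged 144 ± 40.5 CPM of Kdm6b and shKDM6B libraries 83.0 ± 28.3 CPM (mean ± SD, n = 5, as for all group means), and Kdm6b was lower with the shRNA in 5 of 5 same-numbered pairs (log2 fold change -0.88 ± 0.21, adjusted p = 0.0231 in the fit with the replicate number as a block described next, and 1.000 without it). In the rescues its values may include reads of the human domain. Libraries carry the numbers 1 to 5 in every group, and same-numbered libraries deviated together from their group means over all genes, so fits were made without and with the number as a block. Neither the meaning of a number nor whether libraries of a group were separate cultures is stated, so every p-value reflects only how far these samples scatter, which may be technical. Libraries numbered 4 and 5 stood apart from the rest: the ribosomal RNA gene Rn45s took 0.206 to 0.611% of their counts against 2.43 to 7.24% in numbers 1 to 3.

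Levels differed widely among the members. On a scale of mean CPM per kilobase of the longest coding transcript, the most abundant were the chains of the major interstitial fibrils: Col3a1 (type III) at 603, Col1a1 at 501 and Col1a2 (type I) at 488. The ubiquitous basement membrane chain Col4a1 followed at 198, then the multiplexin Col18a1, the precursor of endostatin, at 147, and Col4a2, the partner of Col4a1, at 135. The fibril-nucleating type V chains Col5a2 and Col5a1 stood at 92.6 and 69.8 CPM per kilobase, the type VI chain Col6a1 at 49.0, the type IX chain Col9a3 at 43.8 and the type VIII chain Col8a1 at 32.0. At the other end, 14 of the 43 tested members averaged under 10 CPM, among them the cartilage chain Col2a1 at 6.43 CPM and the kidney basement membrane chain Col4a3 at 1.95 CPM. As many members, 14, averaged at least 100 CPM.

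Start regions are shown for Col3a1, the highest member, and Col4a1, the highest basement membrane chain. They were picked for CG content among the 35 members with a matched window. The Col4a1 window holds the most CG dinucleotides, and that of Col3a1, like those of Col28a1 and 1 of Col9a1, holds 0. Both start regions are RefSeq windows on GRCm38.p6 from 250 bases before to 50 after the annotated start. They are printed in the direction of transcription, with each CG dinucleotide in capitals. The Col3a1 window is chr1:45311288-45311587 on the plus strand and holds no CG. The Col4a1 window is chr8:11312777-11313076 on the minus strand and holds 37.
Col3a1: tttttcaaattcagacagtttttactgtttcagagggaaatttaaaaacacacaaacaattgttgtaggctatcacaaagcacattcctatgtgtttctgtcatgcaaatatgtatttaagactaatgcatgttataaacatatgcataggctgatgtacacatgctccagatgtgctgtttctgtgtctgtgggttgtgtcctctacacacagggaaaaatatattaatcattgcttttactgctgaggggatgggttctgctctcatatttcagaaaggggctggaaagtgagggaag
Col4a1: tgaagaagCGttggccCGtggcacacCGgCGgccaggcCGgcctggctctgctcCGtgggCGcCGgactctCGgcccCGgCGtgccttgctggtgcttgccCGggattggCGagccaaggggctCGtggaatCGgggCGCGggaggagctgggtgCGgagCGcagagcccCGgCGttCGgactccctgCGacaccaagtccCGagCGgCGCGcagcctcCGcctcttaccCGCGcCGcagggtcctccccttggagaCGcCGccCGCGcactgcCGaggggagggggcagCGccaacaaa

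The largest differences in collagen expression lay between replicate numbers, not between the treatments. Every number held 1 library of each group. The summed fibrillar chains and the summed basement membrane chains were highest in the library numbered 5 in all 4 groups. With group and number in 1 fit, 41 of 43 members (95.3%) differed between numbers at an adjusted p under 0.05 (edgeR quasi-likelihood test, Benjamini-Hochberg over 15284 genes). The background was high, since 84.7% of all genes tested were called. The fold between the highest and the lowest number mean had a median of 3.88 over the members and 1.94 over all genes tested, while that between group means had a median of 1.30 and 1.16. In 42 of 43 members the fold between numbers exceeded that between groups, as in 96.8% of all genes. In bulk RNA, fewer cells of a type and less RNA per cell cannot be told apart.

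Summed over the 11 fibrillar chains, the libraries numbered 1 to 5 averaged 5527, 4138, 12940.2, 6484 and 22577 CPM over their 4 groups. Col3a1 stood at 2229, 1119.6, 4358, 2044 and 9111 CPM in control libraries 1 to 5 and at 1673, 1081, 3408, 1760.2 and 6754 CPM in shKDM6B. In Cat Rescue it stood at 1903, 965, 3765, 2702 and 8400.0 CPM and in dCat Rescue at 1740.5, 1150.0, 3731, 1928 and 7333 CPM. In each group library 5 was highest, library 3 came next and library 2 was lowest. Against the mean of the other numbers, number 5 was higher for Col3a1 by 1.97 ± 0.08 on the log2 scale (± SE), for Col1a1 by 1.90 ± 0.09, for Col1a2 by 1.70 ± 0.08 and for Col5a1 by 1.53 ± 0.10. Of the 11 fibrillar chains 8 were higher and 2 lower in number 5, with a median log2 difference of 1.06, where 27.4% of all genes were higher and 20.2% lower. The 2 lower ones were Col2a1, of cartilage fibrils, and Col27a1, a minor fibrillar collagen also known from cartilage. The number means of Col1a1 fell in the same order as those of Col3a1, and its libraries 1 to 5 stood at 1524, 1139, 3728, 2297 and 7778 CPM in control and 1289.6, 1059, 3254, 1425 and 5723 CPM in shKDM6B.

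**Figure D1:**
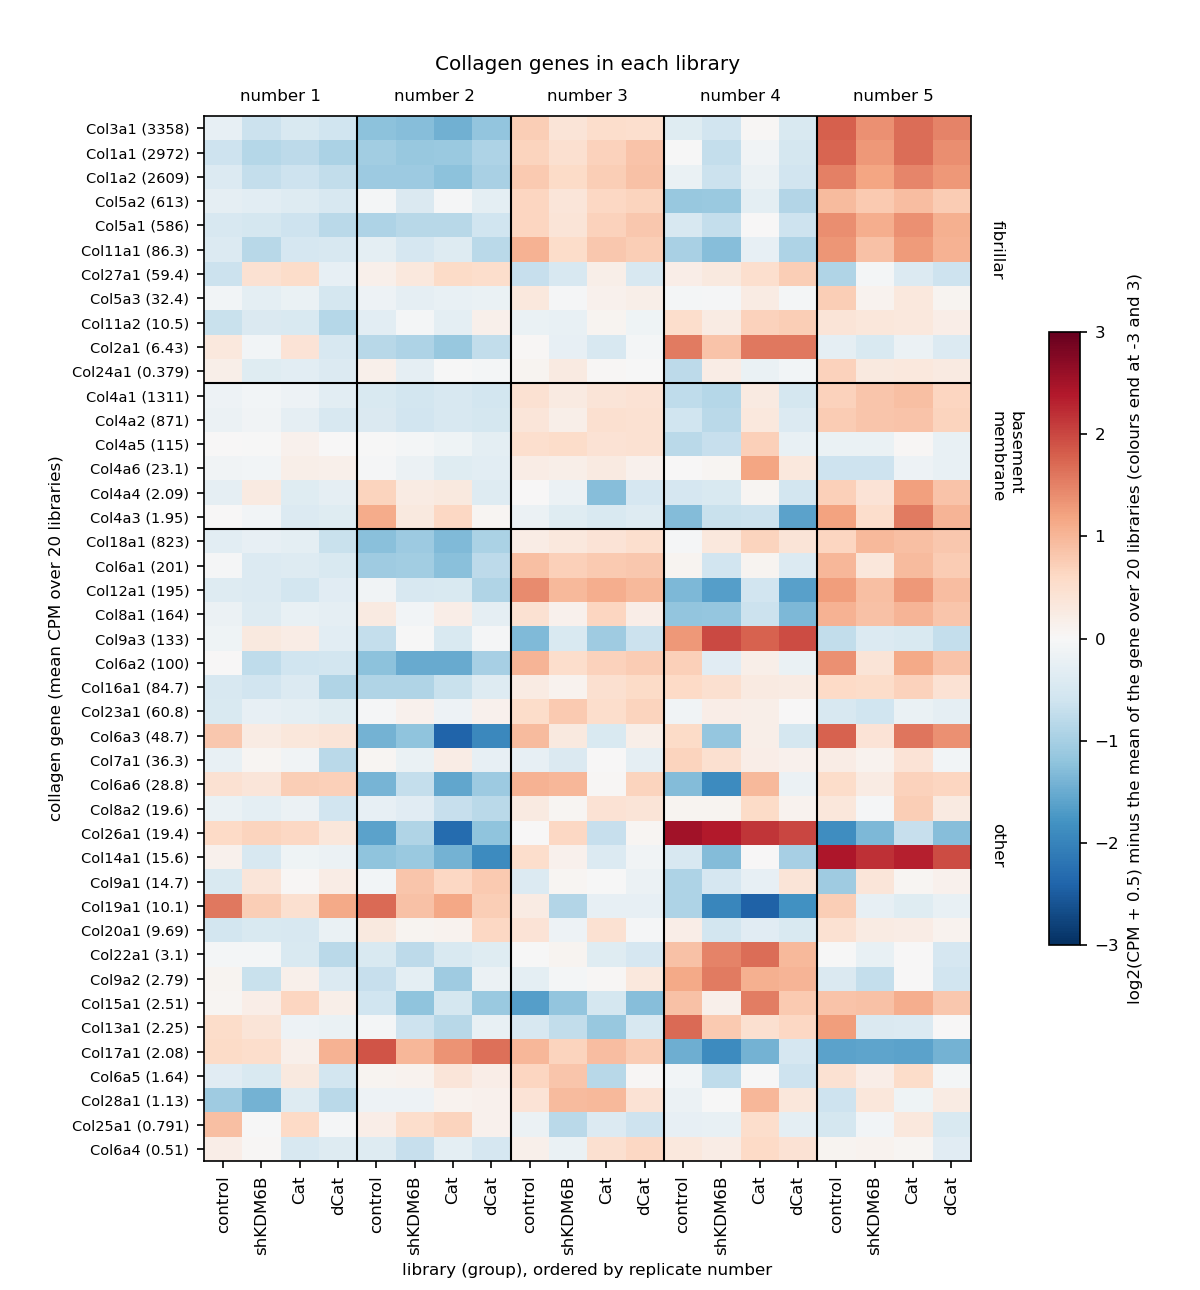
Level of each tested collagen gene in each of the 20 libraries, as log2(CPM + 0.5) minus the gene's mean over all libraries, with libraries ordered by replicate number and genes by class.  Most fibrillar chains are highest in the libraries numbered 5, while Col9a3 and Col26a1 stand out in the libraries numbered 4.

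Basement membrane chains varied less between numbers. Their sum averaged 1902, 1555, 2839, 1715 and 3613 CPM in numbers 1 to 5, and the median fold between the highest and lowest number was 2.44 for these 6 genes. Col4a1 stood at 1094, 885, 1675, 716 and 1969 CPM in control libraries 1 to 5, at 1155, 827, 1481, 672 and 2185 CPM in shKDM6B, at 1092, 873, 1607, 1474 and 2299 CPM in Cat Rescue and at 981, 834, 1647, 841 and 1918 CPM in dCat Rescue. Library 5 was highest in each group, the groups overlapped, and library 4 of Cat Rescue lay above the other libraries numbered 4. Number 5 was higher than the other numbers by 0.96 ± 0.12 log2 for Col4a1. There, 4 of the 6 type IV chains were higher and 1 lower, beside 27.4 and 20.2% of all genes. The rare chain Col4a3 had the widest range of the class, with number means of 1.33, 2.63, 1.15, 0.551 and 4.09 CPM. It was higher in number 5 by 1.73 ± 0.24 log2 and in number 4 its log2 difference was -1.82 ± 0.31.

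The other collagens did not share 1 pattern. Of 26 tested, 10 were higher and 4 lower in number 5 (median log2 difference 0.29), where 27.4% of all genes were higher and 20.2% lower. Col14a1, a FACIT chain that sits on type I fibrils, was lowest in number 2 and highest in number 5, with number means of 8.93, 3.54, 10.5, 6.38 and 48.8 CPM. It reached 55.6 CPM in control library 5, where the other 4 control libraries ran from 4.04 to 14.5 CPM. The log2 difference of number 5 was 2.85 ± 0.15. Col26a1 and Col9a3 peaked instead in number 4, with log2 differences of 2.88 ± 0.19 and 2.18 ± 0.10. Number means of Col26a1 were 17.5, 4.08, 12.3, 58.4 and 4.67 CPM. Col19a1, a FACIT chain that some interneurons of the mouse brain are known to make, was low in number 4 (log2 difference -2.48 ± 0.19) and high in number 2 (1.51 ± 0.14).

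Of the remaining abundant members, Col12a1, a FACIT chain of tendon and fascia, had number means of 117, 113, 340.4, 66.6 and 337 CPM and Col8a1, of vessel walls and the cornea, 122, 152, 191, 70.1 and 284 CPM. Both were lowest in number 4. Col18a1, with 572, 332, 953, 946 and 1315 CPM, and Col6a1, with 143, 87.1, 311, 158 and 306 CPM, were lowest in number 2. Across all 43 members the highest number was 5 in 21, 4 in 11, 3 in 6, 2 in 4 and 1 in 1, and the lowest number was 2 in 19. Over all genes tested, the highest number was 5 in 23.9%, 4 in 33.7%, 3 in 11.2%, 2 in 20.4% and 1 in 10.8%. The lowest number was not counted over all genes, so the count of members lowest in number 2 has no such share beside it. Against the other numbers, number 1 had 4 members higher and 19 lower (33.3% of all genes called, 16.7% higher and 16.6% lower). Number 2 had 7 higher and 25 lower (42.9%, with 21.2% and 21.7%), and number 3 had 19 higher and 5 lower (22%, with 14.8% and 7.26%). Number 4 had 14 higher and 16 lower (70.6%, with 34.4% and 36.2%), and number 5 had 22 higher and 7 lower (47.6%, with 27.4% and 20.2%).

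Marker genes of other cell types moved with the number as well. The 20 genes listed for fibroblasts and meningeal cells, led by Igf2 (a growth factor), Fbln1 (fibulin) and Dcn (decorin), summed to 1662, 1136, 2925, 3168 and 3102 CPM in numbers 1 to 5. All 20 passed the filter, 15 were lowest in number 2, and the highest number was 5 in 8, 4 in 7 and 3 in 5. Igf2 alone averaged 395, 218, 364, 1201 and 391 CPM, and without it, a choice made after seeing the data, the other 19 summed to 1267, 918, 2561, 1966 and 2711 CPM. In number 4 against number 5, Pdgfra, a receptor of fibroblasts, stood at 78.1 against 211 CPM, Lum (lumican) at 78.2 against 157 CPM and Fbln1 at 494 against 837 CPM. The reverse held for Slc6a13 at 62.8 against 5.06 CPM and Fmod at 73.1 against 46.1 CPM, as for Igf2, and 7 of the 20 genes were highest in number 4. The members are called collagen genes here because they were chosen by symbol, and they include genes with other orders, such as Col9a3 and Col26a1. Astrocyte and Bergmann glia markers, led by Gfap, summed to 5420.0, 3966, 3093, 9466 and 1691 CPM, granule neuron markers, led by Cbln1 and Zic1, to 6689.7, 7758, 5209.9, 2774 and 6520.5 CPM, and mural markers, led by Acta2 and Tagln, to 760.4, 707, 1466, 908 and 1543 CPM in numbers 1 to 5. Endothelial markers summed to 82.6, 76.3, 164, 127 and 193 CPM in numbers 1 to 5 (66.8 to 207 CPM over the libraries). Most of it came from Cdh5, the cadherin of endothelial junctions, at 87.8 CPM on average (40.1 to 143), while Pecam1 averaged 1.46 CPM and Cldn5 0.357 CPM. Oligodendrocyte markers summed to 485, 91.5, 427, 430 and 730 CPM and choroid plexus markers to 662, 824, 436, 1656 and 1995 CPM in the same order. Microglia markers summed to 654, 408, 213, 671 and 416 CPM and GABAergic neuron markers to 377, 351, 243, 267 and 157 CPM. The part of any of these cell types in the collagen differences was not tested.

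**Figure D2:**
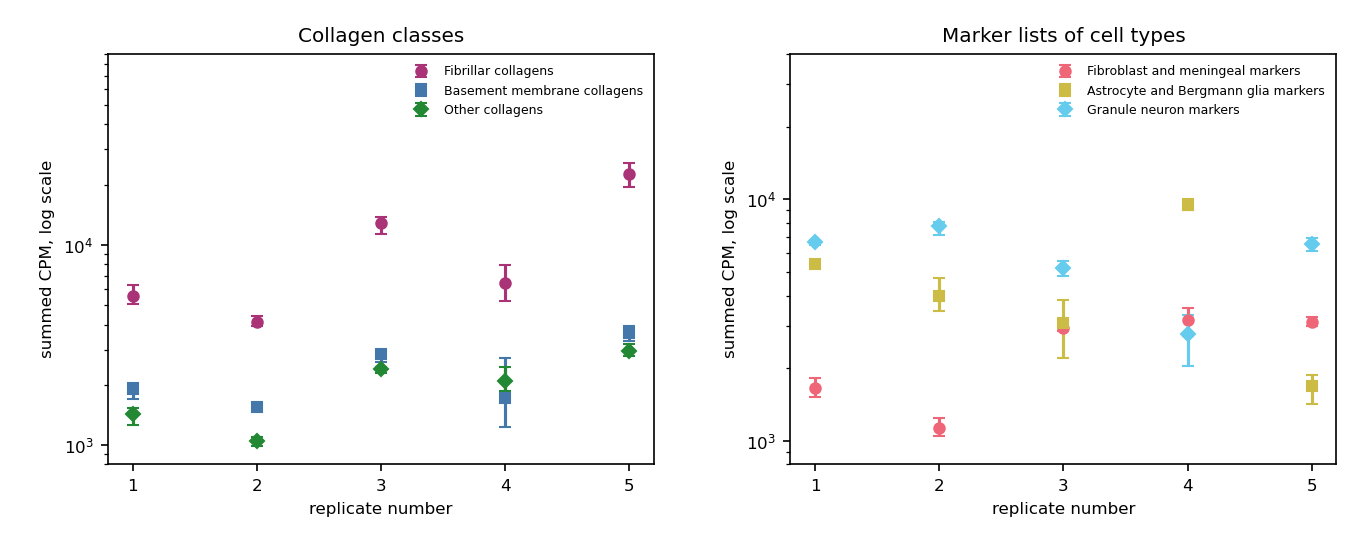
Left: summed CPM of fibrillar, basement membrane and other collagens for each replicate number, as mean and range over its 4 libraries on a log axis. Right: the same for the summed markers of fibroblasts and meningeal cells, of astrocytes and Bergmann glia, and of granule neurons; fibrillar collagen is highest in number 5 and astrocyte markers in number 4.

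The comparison of shKDM6B with control asks how these genes differed with the shRNA, where Kdm6b averaged 57.7% of control. Since the control virus is unknown, the comparison may hold more than the lower Kdm6b. The type IX chains Col9a1 and Col9a3 rose, while the FACIT chain Col19a1 and the type VI chain Col6a2 fell, and no fibrillar or type IV chain passed in the edgeR fit. These calls were made with the replicate number as a block, where 4 of 43 members were called (2 higher and 2 lower, 9.30%), against 4.14% of all genes tested (1.72% higher, 2.41% lower). Without the block 0 members were called (0.00654% of all genes). There, 1 member had an unadjusted p under 0.05, beside 477 of the 15284 genes tested. DESeq2 without the block called 0 members as well, where it called 0.428% of all genes.

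Col19a1 stood at 23.9, 26.2, 9.14, 3.78 and 13.2 CPM in control libraries 1 to 5 and at 13.1, 14.5, 3.93, 1.61 and 6.36 CPM in the same-numbered shKDM6B libraries. It was lower in 5 of 5 pairs, although the groups as wholes overlapped. The group means were 15.2 ± 9.59 and 7.91 ± 5.67 CPM, and the paired log2 fold change was -1.03 ± 0.17 (adjusted p = 0.00260). Col6a2 (chr10:76595762-76623630, minus strand), a chain of the beaded filaments that surround cells, stood at 85.8, 35.6, 172, 139 and 221 CPM in control and at 49.7, 29.5, 123, 66.5 and 109.9 CPM in shKDM6B. It too was lower in 5 of 5 pairs with overlapping groups, from 131 ± 72.4 to 75.6 ± 39.6 CPM, with a log2 fold change of -0.73 ± 0.13 (adjusted p = 0.00357). Its partners Col6a1 and Col6a3 did not pass the test, with log2 fold changes of -0.37 ± 0.12 (adjusted p = 0.128) and -0.76 ± 0.28 (adjusted p = 0.172).

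Col9a1 and Col9a3 encode chains of type IX collagen, which decorates the fibrils of cartilage and the vitreous. Col9a1 stood at 9.96, 13.2, 10.3, 7.15 and 6.42 CPM in control libraries 1 to 5 and at 18.1, 25.0, 14.4, 9.66 and 18.0 CPM in shKDM6B. It was higher in 5 of 5 pairs, and 1 shKDM6B library, library 4, lay within the control range. The means were 9.41 ± 2.71 and 17.0 ± 5.64 CPM, with a log2 fold change of 0.84 ± 0.16 (adjusted p = 0.00658, and 0.511 without the block). Col9a3 (chr2:180597790-180622189, plus strand) stood at 93.2, 62.4, 40.5, 251 and 61.0 CPM in control and at 125, 101, 74.5, 404 and 77.5 CPM in shKDM6B. It was higher in 5 of 5 pairs, while library 4 exceeded all others in both groups, and the log2 fold change was 0.60 ± 0.13 (adjusted p = 0.0102). The remaining type IX gene, Col9a2, averaged 2.79 CPM and did not pass (log2 fold change 0.05 ± 0.28, adjusted p = 0.974). The end of Col9a3 overlaps the end of Tcfl5 on the opposite strand, and since no source used here says whether counting used strand, reads of the pair cannot be told apart there; the same holds for Col18a1 and Slc19a1.

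**Figure D3:**
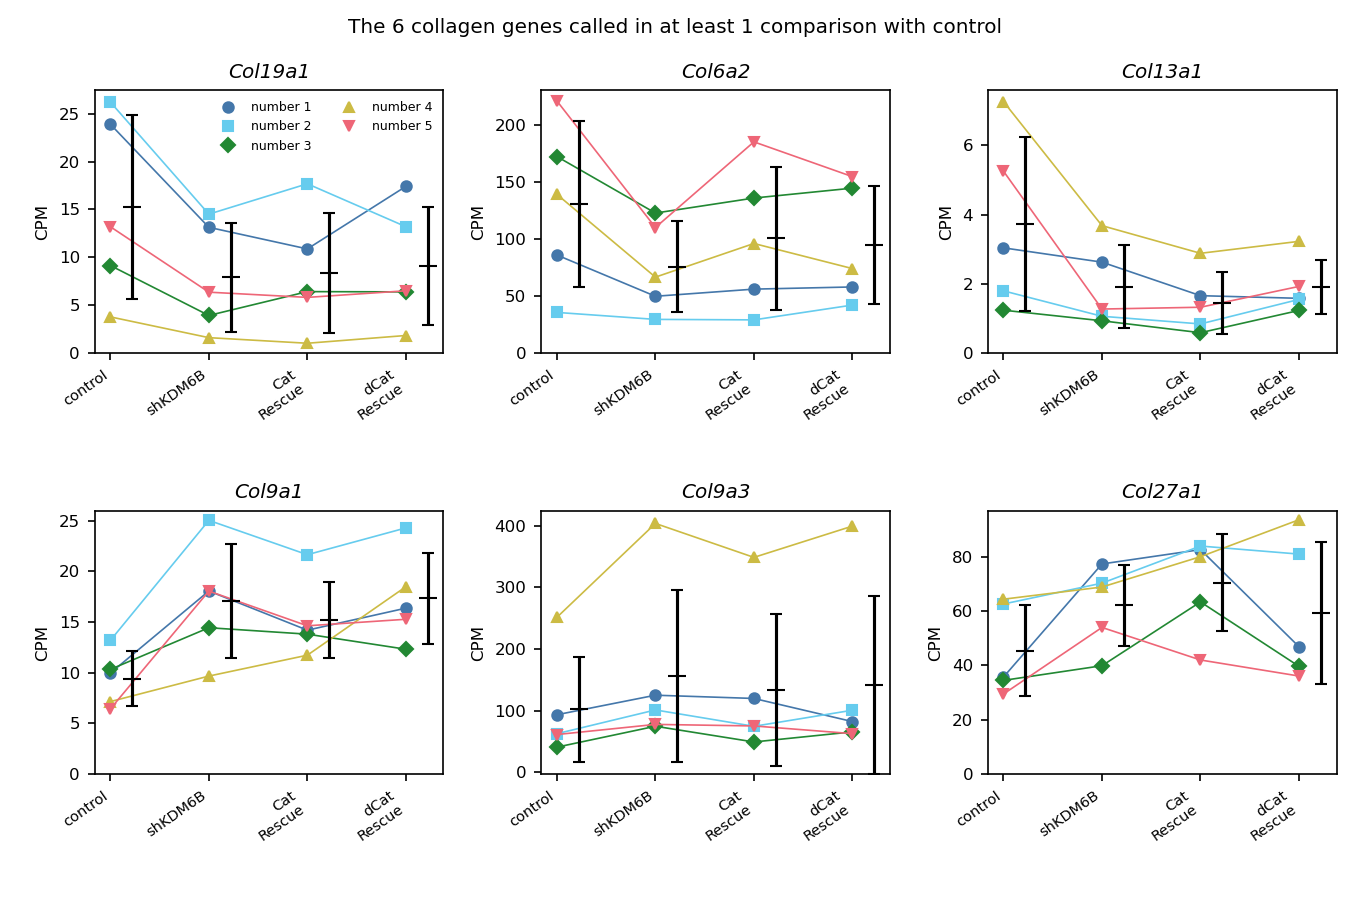
CPM of the 6 collagen genes called in a comparison with control, by group; points are libraries, lines join libraries of the same number, and black marks give the mean ± SD of 5 libraries. Col19a1 lies lower and Col9a1 higher than control in every same-numbered pair of each treated group, although the groups overlap.

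Leaving out any 1 of the 20 libraries kept all of Col19a1, Col6a2, Col9a1 and Col9a3 called with the block, and the number of members called ran from 4 to 7, the highest without Cat Rescue library 4, where 5.93% of all genes were called (2.28 to 5.93% over the 20 fits). Without the 4 libraries numbered 5, 3 members and 1.19% of all genes were called, and Col9a1 no longer was (adjusted p = 0.0875). Without those numbered 4, 9 members and 6.5% of all genes were called, the added members being Col3a1, Col11a1, Col5a3 and Col8a1 at lower and Col27a1 at higher levels in shKDM6B.

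Col9a1 and Col19a1 are neighbours on chromosome 1 that are transcribed towards each other and moved in opposite directions. In the GENCODE M21 annotation of GRCm38, Col9a1 spans chr1:24177610-24252684 on the plus strand and Col19a1 chr1:24261890-24587472 on the minus strand, with 9205 bases and no annotated gene between their ends. Their start regions are shown because these were the only 2 members called against control in all 3 treated groups with the block. The Col9a1 window, chr1:24177360-24177659 on the plus strand, holds no CG, and the Col19a1 window, chr1:24587388-24587687 on the minus strand, holds 16.
Col9a1: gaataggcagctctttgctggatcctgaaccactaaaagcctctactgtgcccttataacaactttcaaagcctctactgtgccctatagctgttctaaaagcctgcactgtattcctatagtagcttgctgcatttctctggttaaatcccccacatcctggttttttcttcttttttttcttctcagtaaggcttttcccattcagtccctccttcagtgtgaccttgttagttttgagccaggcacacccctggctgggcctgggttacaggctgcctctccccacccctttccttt
Col19a1: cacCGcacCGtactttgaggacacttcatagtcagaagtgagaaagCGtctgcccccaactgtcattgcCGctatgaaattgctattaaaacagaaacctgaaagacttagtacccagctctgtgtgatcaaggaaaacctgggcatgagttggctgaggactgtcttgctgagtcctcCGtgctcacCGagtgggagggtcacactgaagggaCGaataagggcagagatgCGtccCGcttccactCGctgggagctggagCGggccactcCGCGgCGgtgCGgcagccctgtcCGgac

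A RefSeq window was matched for 35 of the 44 members, 38 windows in all, with a median of 11.5 CG dinucleotides against 7 over the 32850 windows of the table. Of the windows of called members, Col13a1 held 29, Col27a1 18 and those of Col6a2 16 and 6, and a second start of Col9a1 held 1. The GC-box letters GGGCGG, searched on both strands, were in 23 member windows (60.5%) and in 35.7% of all windows. CCAAT was in 13 (34.2% against 37.4%) and TATAAA in 5 (13.2% against 13.6%), Col3a1 and Col13a1 among the latter. None of these 3 motifs contains another. The Col6a2 window chr10:76623355-76623654 on the minus strand, with its GC-box letters, is shown as that of the type VI chain that fell.
Col6a2: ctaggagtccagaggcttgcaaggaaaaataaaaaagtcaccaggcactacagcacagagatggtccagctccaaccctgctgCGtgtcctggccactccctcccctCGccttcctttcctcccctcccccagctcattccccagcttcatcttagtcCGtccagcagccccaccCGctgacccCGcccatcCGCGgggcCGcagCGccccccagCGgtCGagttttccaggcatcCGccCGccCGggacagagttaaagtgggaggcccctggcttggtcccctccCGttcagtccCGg

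By class, the edgeR fit with the block called 0 of 11 fibrillar chains, 0 of 6 basement membrane chains and 4 of 26 others in shKDM6B against control. The smallest adjusted p was 0.107 among fibrillar chains and 0.731 among basement membrane chains. DESeq2 with the block did call 2 fibrillar chains lower, Col1a1 (adjusted p = 0.0269) and Col11a1 (adjusted p = 0.0482). The summed fibrillar level was 6307, 4221, 13629, 6972 and 25606 CPM in control libraries 1 to 5 and 5203, 3977, 11388, 5245 and 19524 CPM in shKDM6B. It was lower in 5 of 5 pairs and came to 79.9% of control in mean, a difference smaller than the SD over the 5 libraries of either group (11347 ± 8716 and 9067 ± 6523 CPM). Col1a1 had a log2 fold change of -0.34 ± 0.11 (adjusted p = 0.109), Col3a1 of -0.30 ± 0.11 (adjusted p = 0.158) and Col1a2 of -0.27 ± 0.10 (adjusted p = 0.175). The median over the 11 fibrillar chains was -0.27, over the 26 others -0.20 and over all 43 members -0.18, with 11 of 43 positive, beside 0.01 over all genes tested.

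The basement membrane sum averaged 2258 ± 895 CPM over the control libraries against 2221 ± 999 CPM over those of shKDM6B (98.4% of control, above it in 2 of 5 pairs). Col4a1 had a log2 fold change of -0.02 ± 0.14 (adjusted p = 0.974) and Col4a2 of -0.08 ± 0.14. The type VI sum averaged 455 ± 237 and 309 ± 151 CPM, or 67.9% of control, and the multiplexin sum, nearly all Col18a1, was above control in 5 of 5 pairs at 117%. Col18a1 itself did not pass (log2 fold change 0.20 ± 0.11, adjusted p = 0.475). Fibroblast and meningeal markers summed to 1109.5 to 3552 CPM in control and 1140.2 to 3048 CPM in shKDM6B, above control in 2 of 5 pairs, with 1 of 20 called (Crabp2, a retinoic acid binding protein, log2 fold change -1.12 ± 0.23, adjusted p = 0.0101) and a list median of -0.06. Without Igf2, left out after seeing the data, the other 19 fibroblast and meningeal markers summed to 869 to 2659 CPM in control. In shKDM6B these 19 summed to 922 to 2688 CPM, above control in 3 of 5 pairs. Mural markers summed to 748 to 1547 CPM in control and 623 to 1363 CPM in shKDM6B, lower in 5 of 5 pairs with 0 of 12 called and a median of -0.10. With the block, 1 of 14 granule neuron markers was higher and 5 lower (median -0.31). Of 11 microglia markers 1 was lower, all 11 log2 fold changes were negative (median -0.38) and none was positive in Cat Rescue against control either (median -0.29). Of 11 GABAergic neuron markers 1 was higher and 2 lower, with a median of -0.08 and 4 of the 11 log2 fold changes positive. The 2 lower ones were Gad1 (-0.60 ± 0.11, adjusted p = 0.00357) and Slc32a1 (-0.29 ± 0.07, adjusted p = 0.0331), which make and load GABA. The summed GABAergic list was lower in 5 of 5 pairs. Of 12 oligodendrocyte markers 1 was lower (median -0.19), of 8 choroid plexus markers 1 was higher (median 0.18), and of 12 astrocyte and 12 endothelial markers 0 were called (medians 0.16 and 0.10). All of these marker calls, Crabp2 included, were made with the block, and without it 0 were made. The part of these cell types in the calls was not tested.

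**Figure D4:**
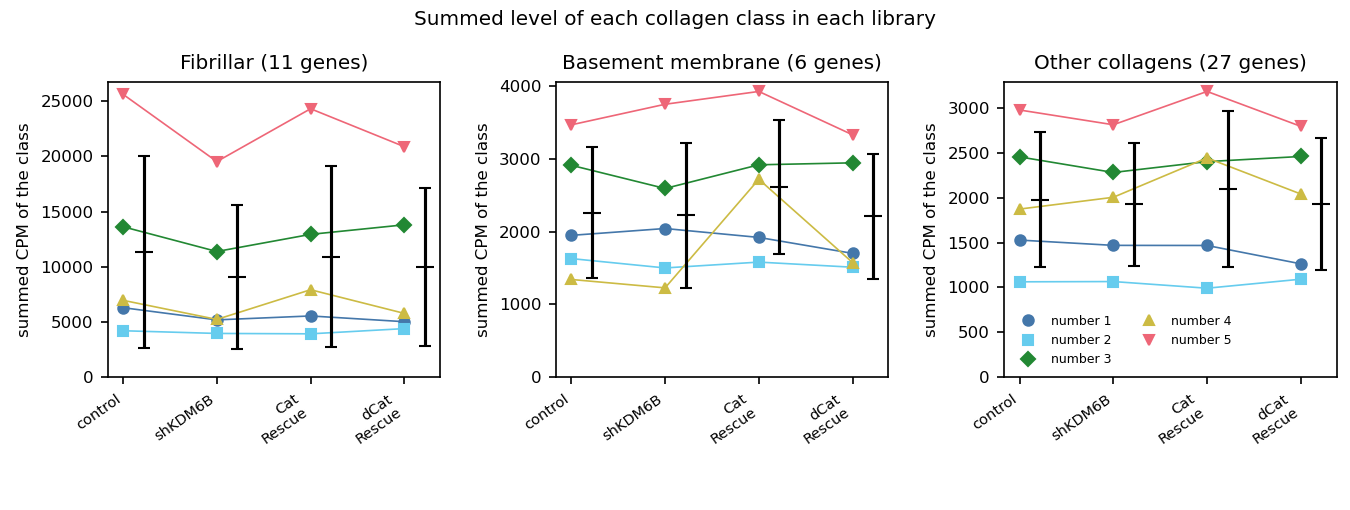
Summed CPM of fibrillar, basement membrane and other collagens in each library, by group; lines join libraries of the same number and black marks give the mean ± SD of 5 libraries. The fibrillar sum averages 11347 CPM in control and 9067 CPM in shKDM6B, and the distance between numbers exceeds that between groups in every panel.

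Both rescues were compared with the same control libraries as shKDM6B, so the 3 comparisons with control share samples and their values are given side by side. In Cat Rescue against control 4 members were called with the block (2 higher, 2 lower), against 1.96% of all genes (1.09% higher, 0.87% lower), and in dCat Rescue 2 (1 higher, 1 lower), against 1.18% (0.576% higher, 0.608% lower). Without the block both counts were 0 (0% of all genes). There, 3 and 1 members had an unadjusted p under 0.05, beside 387 and 276 of the 15284 genes tested. DESeq2 without the block called 0 members in both, where it called 0.202 and 0.111% of all genes. Col19a1 stood at 10.9, 17.7, 6.42, 1.03 and 5.81 CPM in Cat Rescue libraries 1 to 5 and at 17.4, 13.2, 6.39, 1.84 and 6.51 CPM in dCat Rescue. It was below control in 5 of 5 pairs in both. Its log2 fold change against control was -1.03 ± 0.17 in shKDM6B, -0.98 ± 0.17 in Cat Rescue (adjusted p = 0.00744) and -0.79 ± 0.17 in dCat Rescue (adjusted p = 0.0354).

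Col9a1 stood at 14.2, 21.6, 13.8, 11.7 and 14.6 CPM in Cat Rescue and at 16.4, 24.3, 12.3, 18.5 and 15.3 CPM in dCat Rescue. It was above control in 5 of 5 pairs in both, with 1 library of each rescue inside the control range. Its log2 fold change was 0.84 ± 0.16 in shKDM6B, 0.69 ± 0.16 in Cat Rescue (adjusted p = 0.0374) and 0.90 ± 0.16 in dCat Rescue (adjusted p = 0.0117). Against shKDM6B itself neither Col19a1 nor Col9a1 passed in Cat Rescue (Col19a1 0.05 ± 0.18, Col9a1 -0.15 ± 0.16) or in dCat Rescue (Col19a1 0.24 ± 0.18, Col9a1 0.06 ± 0.16, log2 fold changes with the block).

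The other 2 members called in shKDM6B did not pass against control in either rescue by edgeR. Col6a2 stood at 56.0, 29.1, 136, 95.9 and 185 CPM in Cat Rescue libraries 1 to 5 and at 57.9, 42.0, 144, 74.0 and 154 CPM in dCat Rescue, below control in 5 of 5 and 4 of 5 pairs. Its log2 fold changes against control were -0.41 ± 0.13 (adjusted p = 0.126, and 0.0491 by DESeq2 with the block) and -0.40 ± 0.13 (adjusted p = 0.175), beside -0.73 ± 0.13 in shKDM6B. Against shKDM6B it was higher in 4 of 5 pairs in Cat Rescue (0.32 ± 0.13) and in 5 of 5 in dCat Rescue (0.33 ± 0.13), neither called (adjusted p = 1.000 in both). Col9a3 stood at 119.6, 74.4, 48.9, 349 and 75.0 CPM in Cat Rescue and at 82.1, 101, 65.3, 399.7 and 62.5 CPM in dCat Rescue, above control in 5 of 5 and 4 of 5 pairs, library 4 again being the highest. Its log2 fold changes against control were 0.33 ± 0.13 (adjusted p = 0.230) and 0.39 ± 0.13 (adjusted p = 0.175), beside 0.60 ± 0.13 in shKDM6B. It was lower than in shKDM6B in 5 of 5 pairs in both rescues (-0.27 ± 0.13 and -0.21 ± 0.13), again not called (adjusted p = 1.000 in both).

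A further 2 members passed in Cat Rescue and, by the same edgeR fit, not in the other treated groups. Col13a1 (chr10:61838236-61979108, minus strand), a transmembrane collagen known from the neuromuscular junction, stood at 3.04, 1.80, 1.24, 7.26 and 5.25 CPM in control libraries 1 to 5, at 2.63, 1.06, 0.933, 3.68 and 1.27 CPM in shKDM6B, at 1.66, 0.842, 0.588, 2.88 and 1.32 CPM in Cat Rescue and at 1.58, 1.55, 1.23, 3.23 and 1.93 CPM in dCat Rescue. It was below control in 5 of 5 pairs in each of the 3 treated groups, and library 4 was highest in every group. The log2 fold changes were -0.90 ± 0.25 (adjusted p = 0.0508) in shKDM6B, -1.31 ± 0.25 (adjusted p = 0.0107) in Cat Rescue and -0.81 ± 0.25 (adjusted p = 0.145) in dCat Rescue. Col27a1 (chr4:63214004-63334991, plus strand) stood at 35.7, 62.7, 34.5, 64.4 and 29.5 CPM in control, at 77.4, 70.4, 39.9, 68.9 and 54.0 CPM in shKDM6B, at 82.7, 84.0, 63.4, 80.1 and 42.0 CPM in Cat Rescue and at 46.9, 81.1, 39.7, 93.7 and 36.1 CPM in dCat Rescue. It was above control in 5 of 5 pairs in each of the 3 treated groups. Its log2 fold changes were 0.51 ± 0.16 (adjusted p = 0.109), 0.67 ± 0.16 (adjusted p = 0.0441) and 0.37 ± 0.16 (adjusted p = 0.419) in the same order. In shKDM6B, Col13a1 was called with RLE size factors (adjusted p = 0.0486) and by DESeq2 (adjusted p = 0.0146), both with the block, and Col27a1 without the 4 libraries numbered 4 (adjusted p = 0.0426). A call in 1 group and not in another does not show that the groups differ, and in the direct contrast of the rescues neither gene passed (Col13a1 -0.49 ± 0.26, adjusted p = 1.000; Col27a1 0.31 ± 0.16, adjusted p = 1.000).

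The Cat Rescue calls of Col13a1 and Col19a1 and the dCat Rescue call of Col9a1 held when any 1 library was left out, but Col27a1 and Col9a1 in Cat Rescue were each lost in 12 of 20 such fits (adjusted p up to 0.156 and 0.111) and Col19a1 in dCat Rescue in 9 of 20 (up to 0.133). The count for Cat Rescue was 2 without any 1 of control libraries 1, 2, 4 and 5, shKDM6B library 2, Cat Rescue libraries 1, 2 and 3 or dCat Rescue library 5. That for dCat Rescue was 1 without any 1 of control libraries 1, 2, 4 and 5, Cat Rescue library 5 or dCat Rescue libraries 2, 3, 4 and 5. Without the 4 libraries numbered 5, 0 members were called in either comparison (0.684 and 0.274% of all genes).

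**Figure D5:**
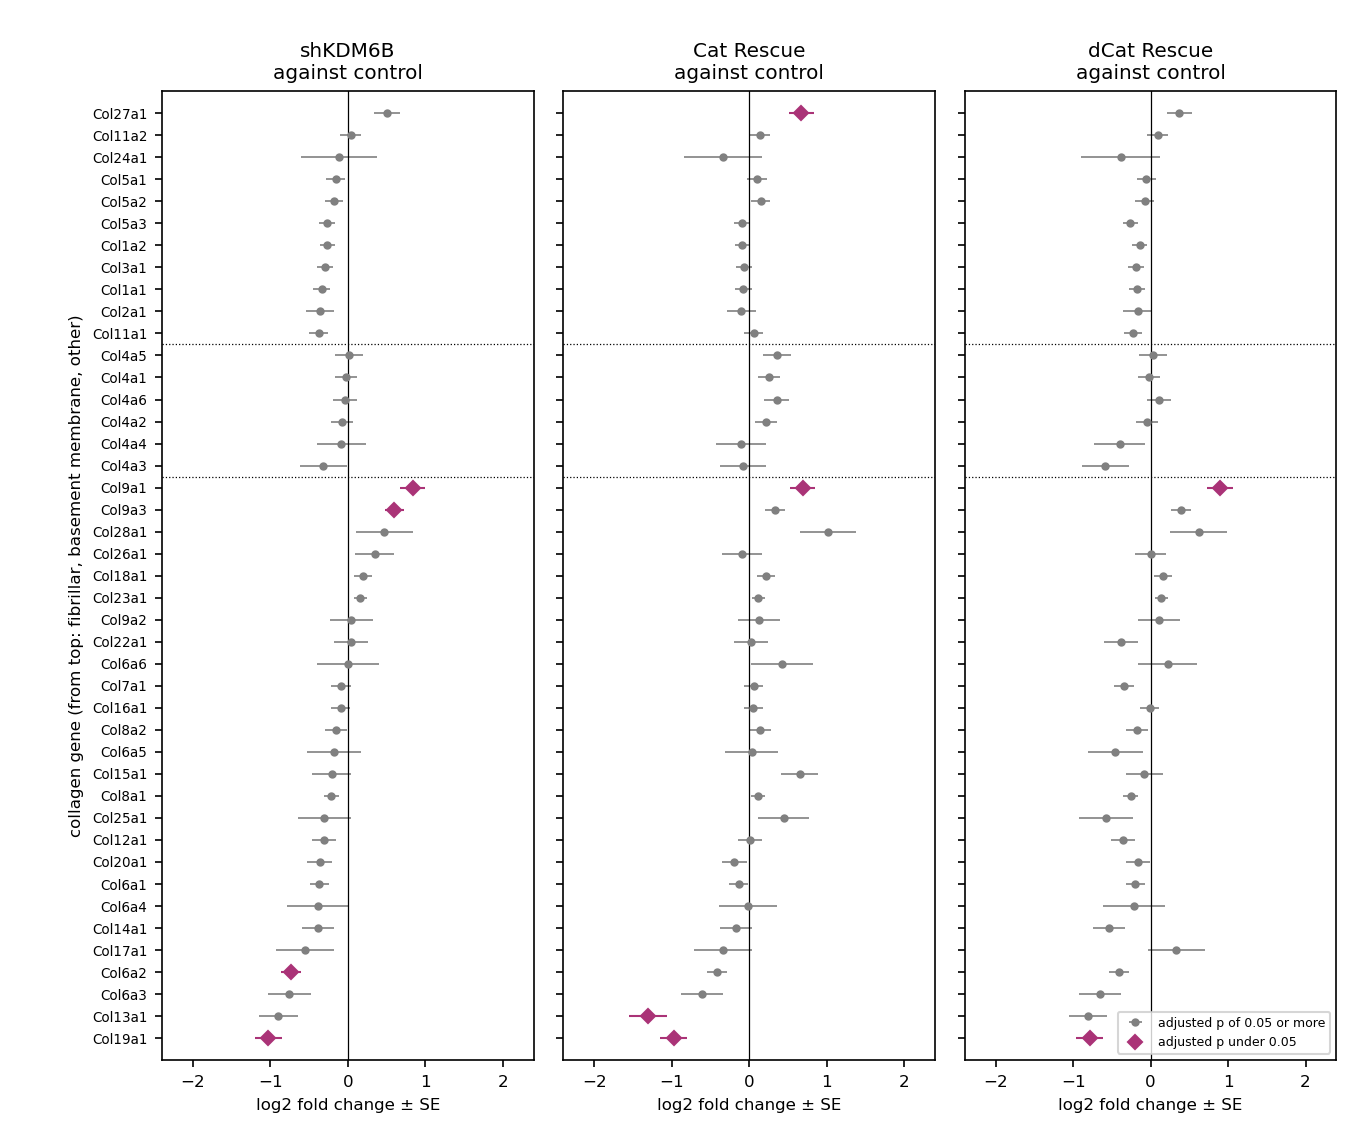
Log2 fold change against control (± SE, fit with the replicate block) of the 43 tested collagen genes in shKDM6B, Cat Rescue and dCat Rescue, by class. Diamonds mark an adjusted p under 0.05, which 4, 4 and 2 genes reach; most fibrillar points of shKDM6B lie just below 0.

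Between the treated groups no collagen gene passed the test. In Cat Rescue against shKDM6B 0 of 43 were called with the block (0.00654% of all genes) and 0 without it (0%). In dCat Rescue against shKDM6B 0 of 43 were called in both fits (0% and 0%), and in Cat against dCat Rescue likewise (0.00654% with the block and 0% without). With the block 11, 2 and 7 members had an unadjusted p under 0.05, beside 577, 214 and 415 of the 15284 genes tested. DESeq2 called 0 members in each, with the block (0.157, 0 and 0.0196% of all genes) and without it (0% in each). The median log2 fold change of the members was 0.22 in Cat Rescue against shKDM6B (35 of 43 positive), 0.06 in dCat Rescue against shKDM6B (27 positive) and 0.16 in Cat against dCat Rescue (34 positive), beside 0.01, 0.00 and 0.01 over all genes. Col8a1 had the value 0.33 ± 0.09 in the first (adjusted p = 0.666) and 0.37 ± 0.09 in the last (adjusted p = 0.993). The fibrillar sum was 5558, 3942, 12939, 7930.4 and 24303 CPM in Cat Rescue libraries 1 to 5 and 5039.5, 4414, 13804, 5790.3 and 20873 CPM in dCat Rescue. Their means of 10935 ± 8209 and 9984 ± 7180.3 CPM lay between those of shKDM6B and control, all 4 groups overlapping. Col3a1, for one, had a log2 fold change of 0.23 ± 0.11 in Cat Rescue against shKDM6B (adjusted p = 1.000).

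The 66 tested genes of the collagen pathway (chain modification and folding, propeptide processing and crosslinking, matrix partners, receptors, degradation) were read from the same fits. In shKDM6B against control with the block, 1 rose, 4 fell and 61 did not pass (7.58% called, beside 4.14% of all genes), with a median log2 fold change of -0.12, and without the block 0 were called. Those that fell were the nidogens Nid2 (log2 fold change -0.87 ± 0.15, adjusted p = 0.00351) and Nid1 (-0.76 ± 0.19, adjusted p = 0.0330), which link type IV collagen to laminin, the tenascin Tnxb (-0.57 ± 0.12, adjusted p = 0.0126) and the procollagen proteinase Tll1 (-0.99 ± 0.25, adjusted p = 0.0293). Mmp13, a collagenase, rose from 35.6 ± 26.6 to 57.0 ± 51.6 CPM (0.60 ± 0.16, adjusted p = 0.0407). Mean levels of Nid2 were 122 ± 53.9 CPM in control and 65.0 ± 28.5 CPM with the shRNA. None of 18 genes of chain modification and folding passed, the collagen chaperone Serpinh1 standing at 867 ± 364 and 714 ± 293 CPM. None of the 8 receptors passed either. In Cat Rescue against control 1 pathway gene was higher and 2 lower, in dCat Rescue 0 higher and 1 lower, and between the treated groups 0 of 66 were called.

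By number, the pathway genes were mostly high where fibrillar collagen was high. In number 5, 53 of 66 were higher and 3 lower (27.4 and 20.2% of all genes). In number 2, 2 were higher and 53 lower (21.2 and 21.7%), and in number 4, 18 were higher and 25 lower (34.4 and 36.2%). The crosslinking enzyme Lox had number means of 464, 647, 1373, 319 and 2341 CPM and fibronectin, Fn1, 1859.8, 1898, 3932, 1126 and 7350.1 CPM. Both were highest in number 5 and lowest in number 4.

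Chains that assemble into 1 protein kept their proportions to different degrees. On a CPM per kilobase scale, the ratio of Col1a1 to Col1a2 ran from 0.853 to 1.16 over the 20 libraries (median 0.993) and that of Col4a1 to Col4a2 from 1.29 to 1.65 (median 1.46). Col4a1 and Col4a2 start head to head on chromosome 8 and overlap by 22 bases. The type VI ratio of Col6a1 to Col6a2 was wider, from 1.54 to 3.33, with means of 2.12 ± 0.448 in control and 2.69 ± 0.525 in shKDM6B. The type V ratio of Col5a1 to Col5a2 ran from 0.389 to 1.11. Most variable was the ratio of Col9a3 to Col9a1, from 4.33 to 52.6, which averaged 40.4 in the libraries numbered 4 and 5.14 in those numbered 2. Col3a1 and Col5a2, which lie 24614 bases apart on chromosome 1, both had their highest number mean in number 5, but Col5a2 was lowest in number 4 (432, 483, 829, 317 and 1005 CPM for numbers 1 to 5).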

How the data were processed

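RNA came from the RNAqueous Micro Kit and Novogene built the libraries, per the labels' protocols. The authors deposited 1 table of estimated counts per gene, made with salmon per the name of the table, on build mm10 per the submitters' processing notes; the sources used here give neither the salmon version nor the annotation. Estimated counts were rounded to whole numbers. edgeR 4.0.16 (R 4.3.3) kept 15284 genes with filterByExpr, scaled with TMM and tested all 20 libraries with its quasi-likelihood test (robust, two-sided, Benjamini-Hochberg over all genes, threshold 0.05), without and with the replicate number as a block. All p-values are from this model unless DESeq2 1.42.0 is named. CPM use TMM-scaled library totals.

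The number pairs the libraries: all 30 same-numbered pairs correlated in their deviations from group means (Pearson r across genes 0.361 to 0.881), against a median of -0.205 in 120 other pairs. The pairing comes from this check, not from the labels. Library pairs of a group differed by a chi-square of 29.1 to 415 for each degree of freedom, where sampling noise gives about 1. Each library was therefore counted as 1 replicate, which does not show that libraries were separate cultures.

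The members, gene lists and tests were chosen with earlier results of these data known. Named are the members called in any group comparison, the 12 highest by CPM and the 2 of each class with the widest range of number means, with others as counts or ranges; Col2a1, Col5a3, Col6a3, Col6a5, Col9a2, Col11a1, Col17a1, Col22a1, Col23a1 and Col24a1 were added after their values were seen. Gene positions are GENCODE M21 (GRCm38). On simulated counts of 15052 genes for shKDM6B against control, 2-fold changes were recovered in 33.3% of cases without and 95.5% with the block, with 0 and 7 false calls. The counts were drawn from the fit with the block, with its number effects and spread. The gain with the block was thus built in, and the simulation cannot show which fit is right for these data. The changed genes were drawn only from those above a minimum mean level, so these rates do not cover rare members such as Col13a1 and Col4a3. Alternatives were other scalings, no filter, DESeq2, left-out libraries and number subsets.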

Additional observations from a re-analysis of the deposited data

Results flagged for a closer look

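In 11 of 96 groups of 5 libraries examined for the named members, 1 library lay far from the other 4 (gap over range above 0.71). About 1 in 20 groups of independent values would pass that limit. The rate does not apply here, since libraries are paired by number. Some members, Col14a1 and Col26a1 among them, were also named for their wide range of number means. Of the 11 libraries flagged, 7 were numbered 4 and 4 were numbered 5. Col14a1, the FACIT chain on type I fibrils, stood at 55.6 CPM in control library 5, 47.2 CPM in shKDM6B library 5, 52.4 CPM in Cat Rescue library 5 and 40.0 CPM in dCat Rescue library 5, while no other library passed 14.5 CPM. Col26a1 stood at 69.4 CPM in control library 4, 62.6 CPM in shKDM6B library 4 and 48.2 CPM in dCat Rescue library 4, where the others of those groups reached at most 18.8 CPM. Col9a3, a type IX chain, stood at 251 CPM in control library 4, 404 CPM in shKDM6B library 4, 349 CPM in Cat Rescue library 4 and 399.7 CPM in dCat Rescue library 4, where the others reached at most 125 CPM. The same number was thus far from the rest in each group flagged for a gene.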

How the results depend on the processing

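The calls against control depended on the replicate block. The 0 members called without it in shKDM6B, Cat Rescue and dCat Rescue became 4, 4 and 2 with the block (4.14, 1.96 and 1.18% of all genes), also with library totals only (3.87, 1.88 and 1.2%) or no filter (2.84, 1.21 and 0.793%), and 5, 4 and 2 with RLE size factors (4.1, 1.9 and 1.17%) or 7, 5 and 2 with DESeq2 (6.3, 4.08 and 2.98%; the last 4 settings chosen after seeing the data). With the block, without the 4 libraries numbered 4 the counts were 9, 4 and 2 (6.5, 4.6 and 2.48%), without those numbered 5 they were 3, 0 and 0 (1.19, 0.684 and 0.274%), in numbers 1 to 3 alone 3, 2 and 0 (2.91, 2.97 and 0.936%), and in numbers 4 and 5 alone 0 each (0%). With any 1 library left out, block or no block, they ran from 0 to 7, 0 to 4 and 0 to 3 (with the block, 2.28 to 5.93, 0.83 to 2.67 and 0.422 to 2.26% of all genes). The 3 comparisons among treated groups stayed at 0 in every setting tried. The block changed no count of members among the treated groups; the calls of Kdm6b, pathway genes and markers were also made with the block only. The 41 members that differed between numbers, where 84.7% of all genes were called, were 40 to 42 with any 1 library left out, 38 without number 4 and 39 without number 5. The shares of all genes in these further fits are not given here, so these counts show no trait particular to collagens. For shKDM6B against control, the sign of the log2 fold change turned for Col4a1 with library totals only (0.00838) and, with the block in numbers 4 and 5 alone, for Col4a1 (0.0352) and Col4a3 (0.0402), none of them called. Over the fits with 1 library left out, block or no block, it turned for 13 named members (with the block only for Col4a1, -0.13 to 0.0495, and Col4a2, -0.19 to 0.00248; the other 11, Col9a3 among them, turned only without the block, where a left-out library leaves the numbers unequal between the groups, and with the block Col1a1, for one, ran from -0.40 to -0.30): Col1a1 -0.91 to 0.23, Col1a2 -0.74 to 0.19, Col3a1 -0.93 to 0.27, Col5a1 -0.64 to 0.26, Col5a2 -0.48 to 0.0707, Col4a1 -0.29 to 0.21, Col4a2 -0.36 to 0.18, Col8a1 -0.56 to 0.0586, Col9a3 -0.12 to 1.26, Col12a1 -0.65 to 0.00732, Col14a1 -1.50 to 0.68, Col18a1 -0.0525 to 0.45 and Col26a1 -0.85 to 1.25. The causes were not tested. In counts simulated from the fit with the block, 1.5-fold changes in genes above a minimum mean level were recovered in 4.41% of cases without and 55.9% with the block. Smaller differences can thus go uncalled at this depth and spread.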

Other observations

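Some rarer collagens were also unequal between numbers. Col17a1, the transmembrane collagen of hemidesmosomes, was highest in number 2 and lowest in number 5, with number means of 2.33, 4.77, 2.85, 0.299 and 0.138 CPM for numbers 1 to 5. Col22a1, a FACIT chain of tissue junctions, and Col9a2, of type IX collagen, were highest in number 4 like Col9a3, with 2.03, 1.71, 2.27, 7.19 and 2.30 CPM and 2.07, 1.53, 2.44, 6.23 and 1.70 CPM. The log2 differences of number 4 against the other numbers were 1.80 ± 0.17 for Col22a1 and 1.72 ± 0.21 for Col9a2. The transmembrane collagen Col23a1 was highest in number 3 instead (46.2, 59.4, 91.6, 61.6 and 45.0 CPM). The type VI chain Col6a3 was lowest in number 2 (51.7, 11.4, 47.0, 35.2 and 98.0 CPM), as were its partners Col6a1 and Col6a2. The 2 members not called between numbers (edgeR quasi-likelihood test) were Col24a1, a fibrillar chain of bone (adjusted p = 0.165), which reached at most 0.876 CPM in any library, and the type VI chain Col6a5 (adjusted p = 0.136), at most 3.09 CPM.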
